A study of Mus musculus with 2 samples.

Results

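Interferon-stimulated genes were examined in mouse fibroblasts on their way to induced pluripotent stem cells, through 9 members chosen by name: Isg15, Ifit1, Ifit3, Irf7, Bst2, Oasl2, Usp18, Rsad2 and Ifitm3. All 9 were among the 17408 genes of the table. The cells were unsorted embryonic fibroblasts carrying the STEMCCA cassette, a transgene that expresses the reprogramming factors under doxycycline. They were taken at day 16, after induction with 2 µg/ml doxycycline in serum and LIF medium with ascorbic acid. Single-cell RNA-seq of captured 3' ends was made from 2 libraries, which the labels put in 1 group (library 1 with 3109 cells and library 2 with 3914 cells). No uninduced and no interferon-treated cells were analysed here, so the values describe levels during reprogramming and not a response to a known stimulus. The study describes a pair of independent STEMCCA mouse systems for these data. The labels do not say which library is which, so a difference between the libraries and a difference between those systems cannot be told apart.

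Interferon-stimulated genes are the antiviral genes that cells switch on when secreted interferon binds its receptor. Type I interferons bind Ifnar1 and Ifnar2, and the kinases Jak1 and Tyk2 then activate transcription factors that bind interferon-stimulated response elements in promoters. Fibroblasts are known to respond strongly to interferon, whereas pluripotent stem cells are known for a weak response and for keeping some of these genes, Ifitm3 among them, on without interferon.

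The libraries held 54145377 and 64654306 unique molecular identifiers (UMIs, each standing for 1 captured RNA molecule), with medians of 15625 and 14292 UMIs per cell, and 12 cell barcodes occurred in both. Clustering without the members and without the other interferon genes gave 16 cell states, of which 12 held at least 30 cells in each library. Names come from marker genes. State 5 was pluripotent-like (11 of 12 markers raised; 146 and 391 cells), state 8 fibroblast-like and state 11 smooth muscle-like, and the small state 15 was macrophage-like (4 and 9 cells), while states 4, 6 and 7 were led by cell-cycle genes. The pluripotent-like cells were deeper than the rest (medians of 28768 and 26097 UMIs against 15214 and 13651 in all other cells). Levels are given as UMIs per 10000 UMIs of a cell, averaged over cells.

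The promoters show which members carry the sequence that interferon-activated factors read. RefSeq promoters (GRCm38.p6, 250 bases before to 50 bases after the start) were searched on both strands for a short form of the response element, GAAA followed by any 2 bases and a second GAAA, overlaps allowed. Of the 8 members with a promoter entry 6 held a match, against 3.44% of 32851 promoters. Usp18 had no entry. The stretches around the matches are printed 5′ to 3′ on the strand of the gene, with the matches in capitals:
Isg15, minus strand, chr4:156200855-156200916: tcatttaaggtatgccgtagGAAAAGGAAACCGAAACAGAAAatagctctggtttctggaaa
Ifit1, plus strand, chr19:34640765-34640833: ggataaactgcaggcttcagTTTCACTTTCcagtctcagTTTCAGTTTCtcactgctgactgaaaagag
Ifit3, plus strand, chr19:34583353-34583436: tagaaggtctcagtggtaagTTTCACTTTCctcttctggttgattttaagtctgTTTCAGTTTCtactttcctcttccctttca
Rsad2, minus strand, chr12:26456543-26456592: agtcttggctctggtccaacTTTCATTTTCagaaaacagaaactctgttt
Bst2, minus strand, chr8:71537567-71537622: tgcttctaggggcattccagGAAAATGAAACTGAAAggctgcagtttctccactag
Ifitm3, minus strand, chr7:141010716-141010742: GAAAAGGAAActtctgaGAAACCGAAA
Isg15 had 3 overlapping matches between positions -78 and -57 from its start, Bst2 had 2 overlapping ones, and Ifit1 and Ifit3 had 2 separate matches each. In Ifitm3 both matches lay just after the start, between positions 3 and 29. The letters did not occur in the windows of Irf7 and Oasl2. Among the 56 other effector genes with an entry, 24 held the motif (42.9%). A match is a description of letters and no measure of binding.

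Of the 9 members, Ifitm3 and Bst2 were found in most cells and the other 7 in few. Ifitm3, which blocks the fusion of viruses with endosomes and lies on chromosome 7 (141009586 to 141010770, minus strand, GRCm38), was detected in 99.8% and 99.9% of the cells. Its mean level was 16.1 in library 1 and 15.6 in library 2. Among single cells the 10th percentile was 6.32 and 6.34 and the 90th percentile 27.6 and 26.9.

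Bst2, or tetherin, holds budding virus particles on the cell surface and lies on chromosome 8 (71534255 to 71537456, minus strand). It was detected in 76.9% and 75.8% of the cells, with mean levels of 1.28 and 1.27. Both genes thus had nearly the same mean in both libraries.

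Across the 12 states both genes varied by more than the libraries differed within a state (limma F-test on log2(mean + 0.1), Benjamini-Hochberg adjusted p = 4.92e-09 for Bst2 and 7.46e-06 for Ifitm3). The same was true of 95.3% of the 7190 genes tested, so variation over states is no special property of these members. Bst2 was lowest in the smooth muscle-like state, at 0.597 in library 1 and 0.440 in library 2, and next lowest in the fibroblast-like state, at 0.721 and 0.632. It was highest in state 0, led by Acsbg1, Cib2 and Dmrtc2, at 1.79 and 1.74, and in state 3, led by Perp and Krt19, at 1.86 and 1.64. These highest states overlapped each other, while states 11, 8 and the next, state 4, did not overlap. The G2/M state 7 was at 1.61 and 1.31, where its libraries spanned those of state 10 and overlapped those of state 1.

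Ifitm3 had another order. Among the 12 states it was lowest in the pluripotent-like state, at 12.1 and 10.2. The libraries of that state did not overlap those of the next, the cycling state 4, at 13.6 and 13.1. States 4, 6, 8 and 10 overlapped from neighbour to neighbour. It was highest in state 3, at 21.7 and 19.0, and in state 2, led by Rgcc and Rarres2, at 19.4 and 18.3, which overlapped. In the 13 macrophage-like cells, too few for the fit, Ifitm3 stood at 3.75 and 3.43, and Bst2 at 2.36 and 2.83. Other states left out of the fit were low in Ifitm3 too. In library 1 it was at 9.76 in the 67 cells of the epithelial-like state 12 and at 2.96 in the 16 cells of state 14. In library 2 it was at 10.8 in the 41 cells of state 13. Low Ifitm3 was thus not particular to the pluripotent-like state.

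**Figure D1:**
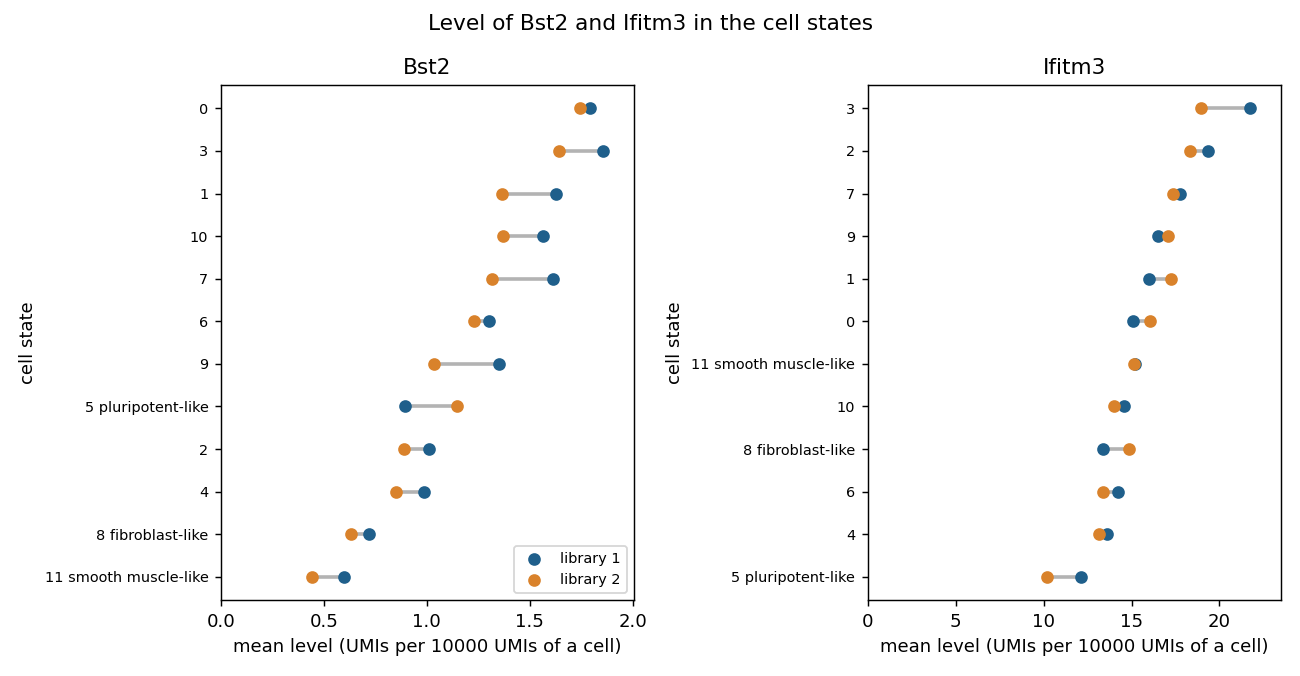
Mean level of Bst2 (left) and Ifitm3 (right) in UMIs per 10000 UMIs of a cell for the 12 cell states with at least 30 cells in each library; each point is 1 library and the grey line joins both. Bst2 runs from 0.440 in the smooth muscle-like state of library 2 to 1.86 in state 3 of library 1. Among these 12 states Ifitm3 is lowest in the pluripotent-like state in both libraries, and smaller states are not shown.

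In pluripotent-like cells against all other cells, both members that could be tested were lower. The other 7 did not reach the mean level of 0.1 that the test required. Ifitm3 was at 12.1 and 10.2 in the pluripotent-like cells of the libraries and at 16.3 and 16.1 in the other cells, which do not overlap (mean 11.2 ± 1.38 against 16.2 ± 0.123, SD, n = 2). Its log2 fold was -0.54 (SE 0.098, limma adjusted p = 0.000582). Bst2 was at 0.896 and 1.15 against 1.30 and 1.28, again without overlap, with a log2 fold of -0.32 (SE 0.11, limma adjusted p = 0.0186). Of all 7007 genes tested 39.3% were lower and 38.0% higher, so 2 lower members stand against a background of frequent change. The call for Bst2 was lost under 4 other settings, with adjusted p between 0.051 and 0.13, among them leaving out the deepest cells, and the fold in library 2 alone was -0.15 against -0.50 in library 1.

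Few genes upstream of the members could be tested, and the values below are on the same log2(mean + 0.1) scale, beside the 39.3% lower and 38.0% higher of all genes. A gene could reach the mean level of 0.1 through 1 class alone, which builds in part of its difference. Of the genes named below, Ifnar2, Irf2, Tmem173, Ifi27, Ccl7, H2-K1 and H2-D1 reached it through the other cells alone. Ddx58, Phf11d and Ptpn6 reached it through the pluripotent-like cells alone. The counts over lists are therefore a description. Ligands could not be tested: of 12 listed interferons Ifnz alone was analysed here, and it had 2 UMIs in library 1 and 0 in library 2. Of 6 receptor genes 1 was tested, Ifnar2, a chain of the type I receptor. It was at 0.0817 and 0.103 in pluripotent-like cells against 0.312 and 0.330 in others (log2 fold -1.13, SE 0.092). Of 13 genes for JAK kinases, STAT factors and IRF factors 4 were tested and all 4 were lower. Jak1, the kinase bound to the receptor, fell by 1.49, and the transcription factor Stat3 fell by 1.24. Irf2, which represses interferon targets, fell by 1.23, and Irf3, which switches on interferon genes after nucleic acid sensing, fell by 0.44. Among 14 sensors and adaptors 3 were tested, 1 of them lower and 1 higher. Mavs, the adaptor for viral RNA sensors and named after its value was seen, was at 0.144 and 0.121 against 0.172 and 0.163 and did not pass (log2 fold -0.20, limma adjusted p = 0.064). Tmem173 (STING, the adaptor for cytosolic DNA) fell by 1.73, from a mean of 0.306 in other cells to 0.0162 and 0.0292, whereas Ddx58 (RIG-I, a sensor of viral RNA) was higher, at 0.202 and 0.220 against 0.0960 and 0.0796.

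Effector genes beyond the members moved both ways. Of the 65 present, 14 were tested, 5 of them higher and 7 lower, near the 38.0% and 39.3% of all genes. The surface protein gene Ly6a had the largest fall of the list, by 3.75 on the log2 scale, from 4.93 and 4.28 in other cells to 0.223 and 0.276. Ifi27 fell by 2.53 and Shisa5 fell by 1.76, while Phf11d rose to 0.351 and 0.368 from 0.0263 and 0.0212. Ccl7, a chemokine that attracts monocytes and the 1 chemokine tested, fell by 2.82.

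Antigen presentation genes were 4 lower and 1 higher of 7 tested. B2m, the light chain of class I molecules, fell by 2.55. The heavy chain genes H2-K1 and H2-D1 had log2 folds of -1.70 and -1.61, and the peptide-loading gene Tapbp fell by 0.82. The negative regulators of signalling split evenly, 3 higher and 3 lower of 6 tested. Ptpn6 (SHP-1, a phosphatase) and Trim24 were higher by 1.51 and 0.87, and Socs3, which inhibits JAK kinases, and Ptpn11 had log2 folds of -0.95 each. Each of the listed genes named as lower or higher had a limma adjusted p of 0.00131 or less and moved the same way in both libraries. For those that reached the mean level through 1 class alone, part of the difference was built in.

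**Figure D2:**
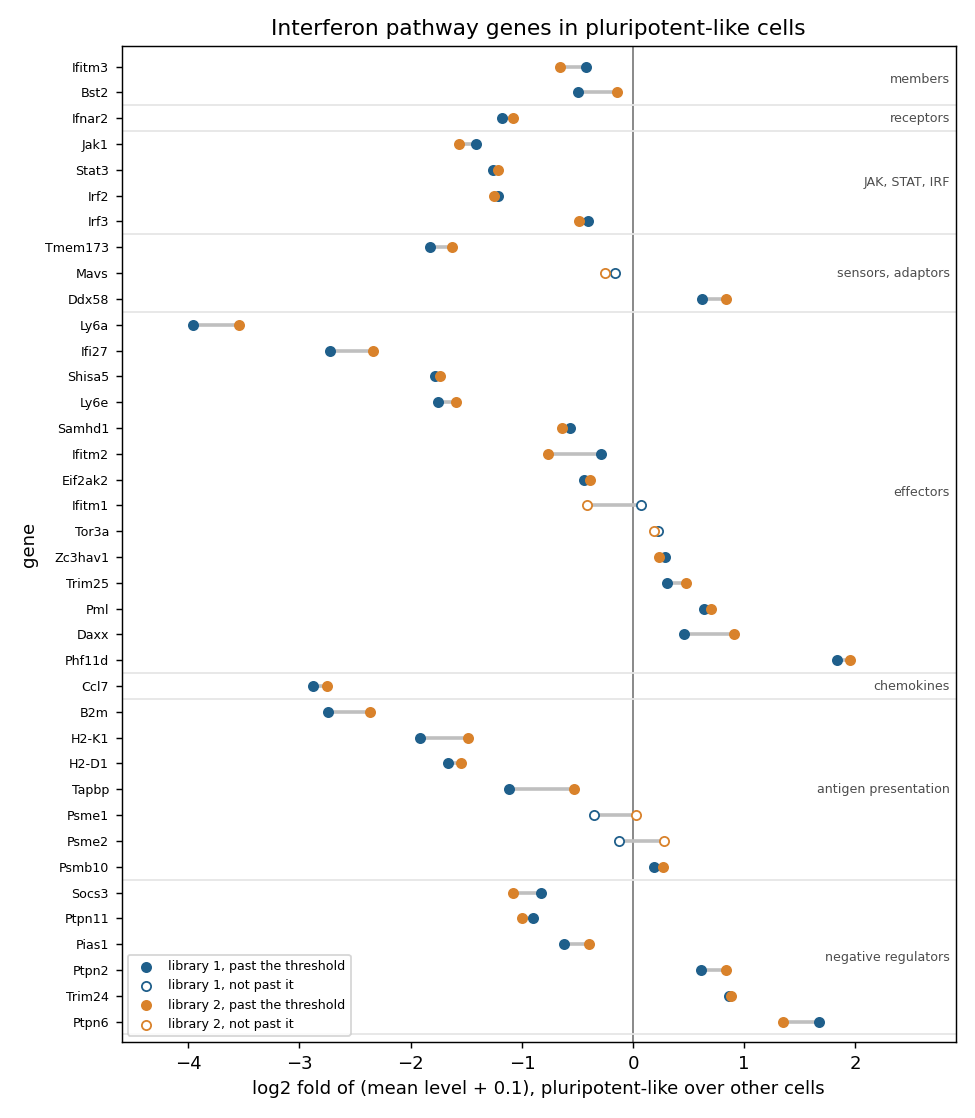
Log2 fold of (mean level + 0.1) between pluripotent-like and all other cells, per library, for the members and the listed interferon genes that were tested; filled points passed the limma threshold. Ifitm3 and Bst2 lie left of 0 in both libraries, at -0.42 and -0.66 and at -0.50 and -0.15, and Ly6a lies farthest left.

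The 7 sparse members were each detected in under 3% of the cells of either library. Isg15, a ubiquitin-like modifier that is attached to proteins, lies on chromosome 4 (156199424 to 156200818, minus strand). It had 378 UMIs in 81 cells of library 1 (2.61%) and 59 UMIs in 44 cells of library 2 (1.12%). Irf7, the transcription factor that amplifies interferon genes, lies on chromosome 7 (141262706 to 141266481, minus strand) and had 108 UMIs in 42 cells and 40 UMIs in 34 cells. Oasl2, a relative of the RNA-sensing oligoadenylate synthetases, lies on chromosome 5 (114896936 to 114912234, plus strand) and had 61 UMIs in 51 cells and 44 UMIs in 35 cells. In these cells single UMIs prevailed: 58 of the 81 Isg15 cells of library 1 and 39 of the 44 of library 2 had exactly 1.

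The others were rarer still. Ifit1, which binds foreign RNA caps, and Ifit3, its partner, lie near each other on chromosome 19 (34640871 to 34650009 and 34583531 to 34588731, both plus strand). Ifit1 had 104 UMIs in 15 cells and 12 UMIs in 10 cells, and Ifit3 had 81 UMIs in 22 cells and 10 UMIs in 8 cells. Rsad2 (viperin, which makes a chain-terminating nucleotide) lies on chromosome 12 (26442746 to 26456452, minus strand) and had 63 UMIs in 14 cells and 7 UMIs in 6 cells. Usp18, which removes Isg15 from proteins and dampens the receptor, lies on chromosome 6 (121245906 to 121270917, plus strand) and had 13 UMIs in 11 cells and 7 UMIs in 6 cells. For scale, the macrophage genes C1qa, C1qb and C1qc had a UMI in 0.193% to 0.384% of the cells outside the macrophage-like state, at medians of 15637 and 14300 UMIs (8664.5 and 8833 in macrophage-like cells). In library 2 the shares of Ifit1 (0.255%), Ifit3 (0.204%), Rsad2 (0.153%) and Usp18 (0.153%) were within or under that range, so these shares cannot be told from background and no level is read from them.

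Among the 12 states with at least 30 cells in each library, Isg15 was found most often in the smooth muscle-like state in both. There 19 of 188 cells of library 1 (10.1%, exact 95% interval 6.20 to 15.3) and 4 of 99 cells of library 2 (4.04%, 1.11 to 10.0) had a UMI. With each cell thinned to 3000 UMIs the order did not hold: the share in library 1 was 2.13% beside 4.14% in state 9, and no such cell of library 2 kept a UMI. The median depth of that state was 15759 and 14503 UMIs, close to the medians of the libraries. The fibroblast-like state had 4.03% and 2.42%. The small state 13, led by Trf and Saa3, had Isg15 in 4 of its 41 cells of library 2 (9.76%, 2.72 to 23.1). State 0 had 1 such cell of 264 and none of 659, and in library 2 the interval of the smooth muscle-like state overlapped those of most other states. Intervals cover counting error only.

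In pluripotent-like cells Irf7 had no UMI in either library. Zero UMIs allowed up to 0.872 and 0.356 per 1000000 UMIs (upper ends of exact Poisson 95% intervals). All other cells were at 2.16 (1.77 to 2.61) and 0.737 (0.526 to 1.00). In library 1, 71 of the 108 Irf7 UMIs came from 9 cells with 3 or more sparse members. Without those cells the level of the other cells was 0.744 (0.524 to 1.03). That is under the limit in the pluripotent-like cells of library 1, so no difference could be read there. In library 2 the level of the other cells was 0.627 (0.434 to 0.876) without the cells with many members. The S-phase state 6 had no Irf7 UMI in its 225 and 287 cells either. Ifit3 and Usp18 were also at 0 in pluripotent-like cells, where at 10 or fewer UMIs in the whole of library 2 a lower level was not detectable. Rsad2 had 5 UMIs in 4 pluripotent-like cells of library 1, or 1.18 per 1000000 (0.384 to 2.76). The other cells were at 1.16, but at 0.141 (0.0566 to 0.290) without the cells with many members, which is lower without overlap. In library 2 Rsad2 was at 0.193 (0.0234 to 0.698) against 0.0921 in others (0.0299 to 0.215), so no direction could be read. Oasl2 had 20 UMIs in pluripotent-like cells of library 2, or 1.93 per 1000000 (1.18 to 2.98) against 0.442 in others (0.283 to 0.658). In library 1 it had 2 UMIs there, 0.473 per 1000000 (0.0573 to 1.71), an interval that holds the 1.18 of the other cells (0.90 to 1.52), so no direction could be read.

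**Figure D3:**
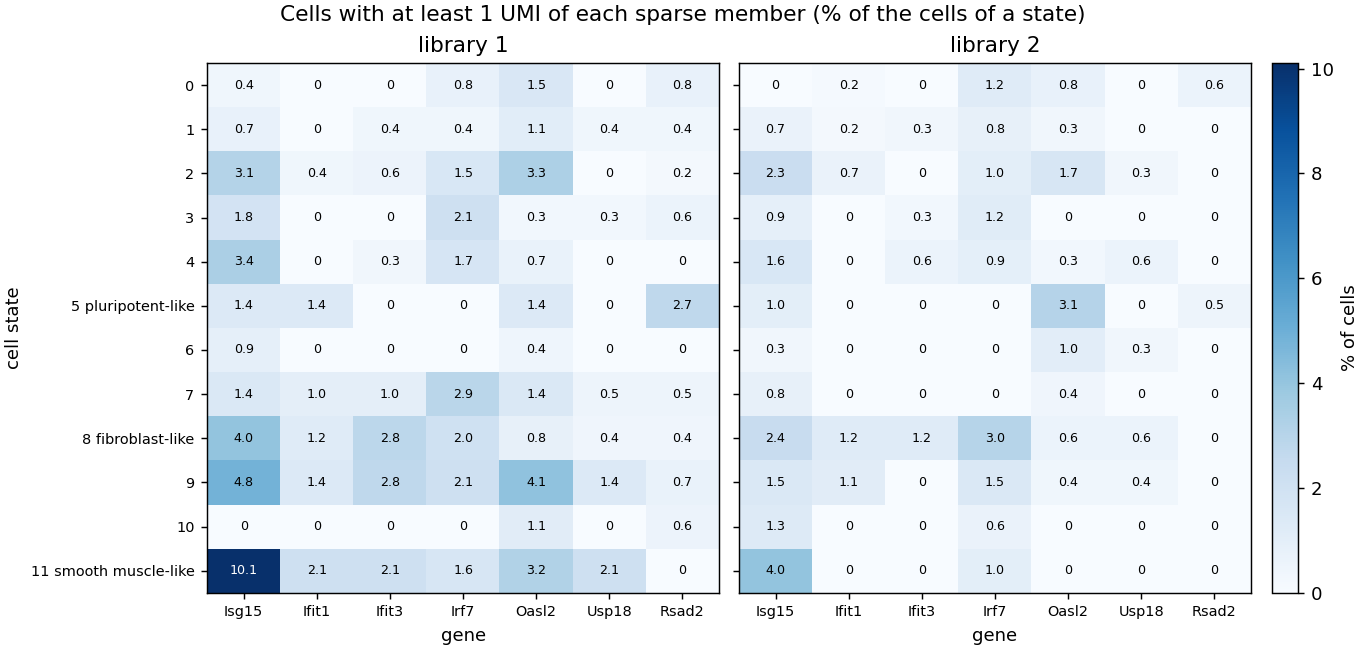
Share of the cells of each of the 12 states with at least 30 cells in each library (rows) with at least 1 UMI of each of the 7 sparse members (columns), in percent, for library 1 (left) and library 2 (right). Isg15 in the smooth muscle-like state is the highest share plotted in both libraries, at 10.1% and 4.04%, and Irf7 is at 0 in the pluripotent-like state and in state 6 in both.

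Most cells with any sparse member had only 1 of them. Of the 195 such cells of library 1 (6.27%) 177 had exactly 1 member and 9 had 2. Of the 129 of library 2 (3.30%) 121 had exactly 1 and 5 had 2. This left 9 cells of library 1 (0.289%, exact 95% interval 0.132 to 0.549) and 3 of library 2 (0.0766%, 0.0158 to 0.224) with 3 or more. These few cells held 583 of the 808 sparse-member UMIs of library 1 (72.2%) and 29 of the 179 of library 2 (16.2%).

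**Figure D4:**
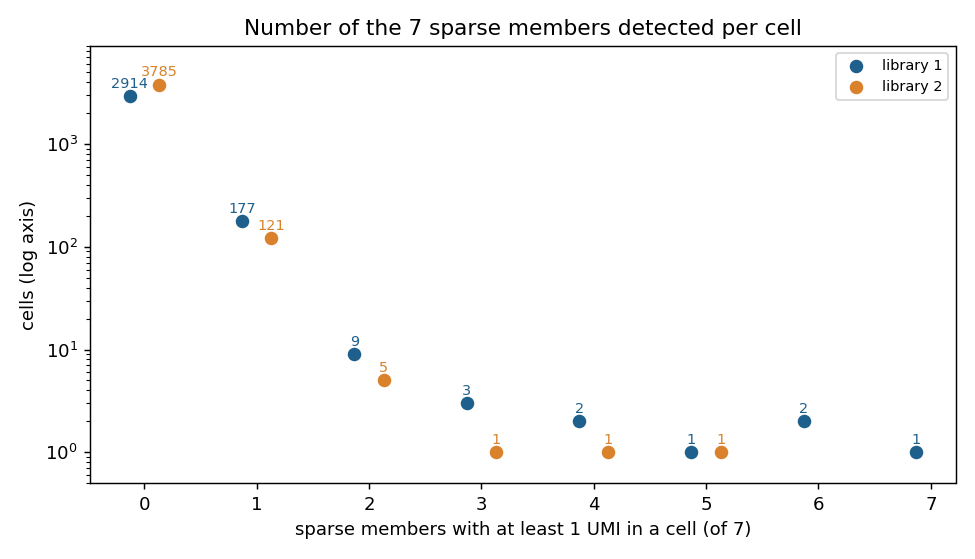
Number of cells (log axis) by how many of the 7 sparse members had at least 1 UMI, for each library. Counts fall from 177 and 121 cells with 1 member to 9 and 5 with 2, and single cells reach 7 members in library 1 and 5 in library 2.

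The sparse members were found together more often than their separate shares gave within strata of library, state and depth. Over their 21 pairs, cells with both genes of a pair numbered 115 in sum where 14.6 came from the shares, and the median ratio over pairs was 9.48. The median over all pairs of 7131 genes was 1.01, with 1.11 at the 99th percentile, although those genes are detected far more often and their ratios can vary less. In library 1 the counts were 91 against 11.1 and in library 2 they were 24 against 3.52. Ifit1 and Ifit3 shared 5 cells of library 1, which were 33.3% of the Ifit1 cells and 22.7% of the Ifit3 cells, where 0.348 came from the shares. In library 2 they shared 2 cells, 20% and 25%, against 0.144, and both were among the 3 cells described next.

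Cells with 3 or more sparse members hold several pairs by their definition, so leaving them out lowers the counts by construction. Without these 12 cells the sum was 14 against 8.37, a ratio of 1.67, and 14 of the 21 pairs shared no cell. Bst2 and Ifitm3 had a ratio of 1.00 with and without them. Ifitm3 was detected in 99.8% and 99.9% of the cells, so this ratio could hardly differ from 1.00 and nothing is read from it. Reads from Ifit3 and its near-identical neighbour Ifit3b could not be separated with certainty by counting 3' ends.

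The 12 cells lay in 7 states, which were made without the interferon genes and so could not set these cells apart by them. In library 1, 3 were in state 9, 2 each in state 4 and in the fibroblast-like state, and 1 each in state 7 and in the smooth muscle-like state. In library 2, 1 each was in the pluripotent-like state, the fibroblast-like state and state 13. Their depth was between 9983 and 35526 UMIs in library 1 and between 15842 and 46473 in library 2, and 7 of 9 and 3 of 3 were deeper than the median of their state.

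A pair of library 1 cells carried most of the signal. The first, of the G2/M state, had 35526 UMIs and all 7 sparse members, led by Ifit1 with 67 UMIs, Isg15 with 33, Ifit3 with 33 and Rsad2 with 9. The second, of state 9, had 9983 UMIs, of which 212 were Isg15, 59 Irf7, 41 Rsad2, 12 Ifit3 and 11 Ifit1. It held 56.1% of the Isg15 UMIs of library 1 and placed Isg15 among the leading genes of state 9, which without the 3 cells had 5 Isg15 UMIs in 142 cells. Genes picked after their values were seen were also high in it: 32 UMIs of Cxcl10, which attracts T cells, and 25 of Iigp1, an interferon-induced GTPase. Its Ifitm3 was low, with 2 UMIs or 2.00 per 10000, while its Bst2 was at 8.01. In library 2 the highest cell, fibroblast-like with 27237 UMIs, had 6 UMIs each of Isg15 and Irf7 and 3 of Ifit3.

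Other effector genes were detected in numbers in these cells. Of the 65 effectors in the table, the first cell had 41 with a UMI, against a median of 9 and a highest of 21 in the 207 other cells of its state and library. The second had 30 and another cell of state 9 had 22, against a median of 9 and a highest of 18. All 12 cells were above the median of the other cells of their state, and 5 of the 12 were above the highest. These counts rise with depth. By summed level per 10000 UMIs, 9 of 12 were above the median of their state and 2 of 12 above its 95th percentile, the second cell at 132 and a state 9 cell with 15 effectors at 64.8, against 57.7. The first cell was at 55.2 against 56.4, and the cell with 22 effectors at 37.4. A few abundant genes weigh heavily in this sum. In the cells outside the 12, Ifitm2 stood at 10.46 and 10.47, Ifitm1 at 4.71 and 5.30, and Ly6a at 4.71 and 3.88. The sum therefore says little about the sparser effectors, and no usual level of those is read from it. Summed UMIs of 9 macrophage markers were 0 in 9 of the 12 cells and at most 3, and in the other cells outside the macrophage-like state they were 0 in 2744 of 3096 and 3365 of 3902 cells. The 4 lymphocyte markers in the table had no UMI in the 12 cells, and the 6 endothelial markers had at most 5 UMIs in a cell. For these markers no share of other cells is given, so no cell type is excluded by them.

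**Figure D5:**
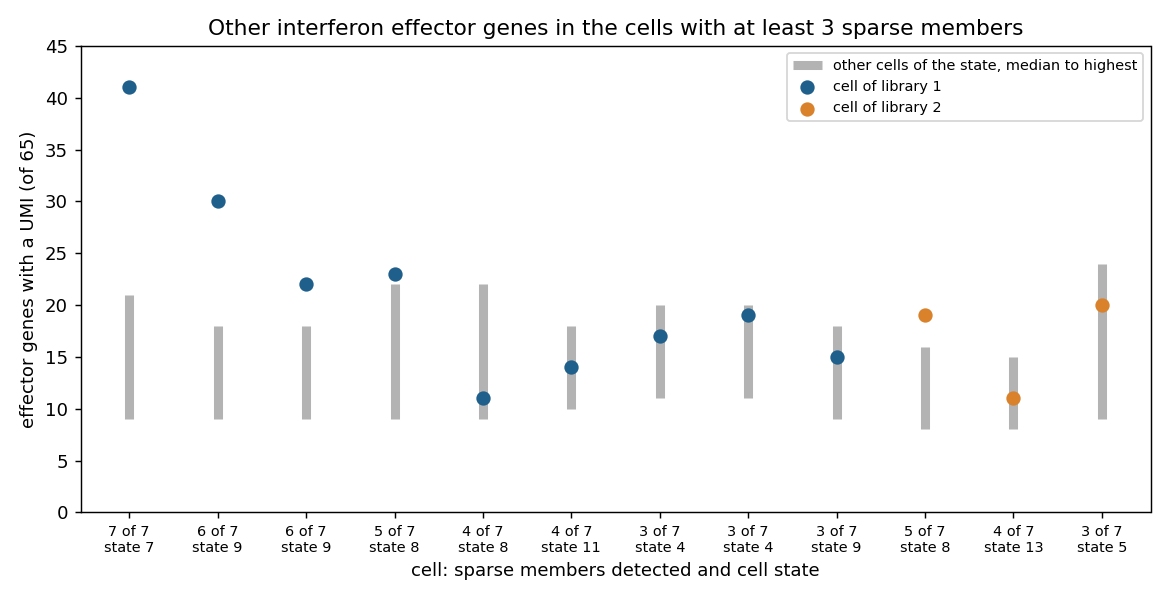
Number of the 65 other interferon effector genes with at least 1 UMI in each of the 12 cells with 3 or more sparse members (points), beside the median to highest of the other cells of the same state and library (grey bars). The cells with 7 and 6 members reach 41, 30 and 22, above the grey bars, and 7 of the 12 cells lie within them.

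Taken as a class against all other cells, the 12 cells had 7 higher genes of 7258 tested, or 0.0964%, and none lower (limma, where 454 genes had an unadjusted p under 0.05, 199 of them higher). Isg15, Irf7, Ifit1, Ifit3 and Oasl2, which chose the cells, were 5 of them and are no result. The others were Ifit3b and Rtp4, an interferon-induced inhibitor of flaviviruses. Both reached the mean level of 0.1 only through these cells, and Ifit3b reads may belong to Ifit3, so a difference was built in and their UMIs are given as a description. Ifit3b had 20 of its 27 UMIs of library 1 and 3 of its 10 of library 2 in the 12 cells, 17 of them in the state 9 cell with 212 Isg15 UMIs. Rtp4 had 6 of 40 and 5 of 37 UMIs there.

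Bst2 and Ifitm3 did not choose the cells, and neither passed the threshold with the pseudocount of 0.1. Bst2 was at 3.47 and 3.66 in the 12 cells and at 1.28 and 1.27 in the others, without overlap (log2 fold 1.42, SE 0.52, limma adjusted p = 0.579). Ifitm3 was at 15.4 and 25.1 against 16.1 and 15.5, with opposite directions in the libraries. With a pseudocount of 1 the difference of Bst2 passed the threshold (limma adjusted p = 6.33e-05). At that setting the count of other listed genes that passed was 9, and Rtp4 did not pass (limma adjusted p = 0.0539). With the pseudocount of 0.1, no gene of the other interferon lists passed besides Ifit3b and Rtp4. Since many of the listed genes reached the mean level through the 12 cells alone, no median over the lists is given and these counts are a description.

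Isg15, Irf7 and Oasl2 had higher shares of UMIs in library 1, while the widely expressed members were nearly level. As a share of all UMIs, Isg15 was 7.65 times as high in library 1 as in library 2 (95% interval 5.80 to 10.2), Irf7 3.22 times and Oasl2 1.66 times. The ratios were 10.3 for Ifit1 (5.68 to 20.7), 9.67 for Ifit3 (5.00 to 20.9), 10.7 for Rsad2 (4.92 to 27.8) and 2.22 for Usp18 (0.822 to 6.56). The library 2 shares of Ifit1, Ifit3, Rsad2 and Usp18 could not be told from background, so no difference in level is read from their ratios. In library 1, 1 cell held 64.4% of the Ifit1 UMIs and 1 cell held 65.1% of the Rsad2 UMIs. For Bst2 and Ifitm3 the ratios were 1.04 and 1.05. Without the 12 cells, the ratio was 2.49 for Isg15, 1.19 for Ifit1, 3.18 for Ifit3, 2.39 for Rsad2, 1.30 for Irf7, 1.39 for Usp18 and 1.28 for Oasl2. These ratios describe the libraries and carry no test, and UMIs of 1 cell are not independent.

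The genes most like the mean of the 9 members over the 24 profiles of state and library were Smpd2 (Pearson r = 0.73), Fbxl15 (0.70), Wfdc17 (0.69), Cir1 (0.67) and Pex13 (0.67). The profiles share library and depth, and within each library r was taken over 12 profiles. In library 1 it was 0.83, 0.82, 0.83, 0.77 and 0.83 for these genes in that order. In library 2 it was 0.34, 0.29, 0.43, 0.75 and 0.54. Each member counts equally in the mean after scaling, so the 7 sparse members, most of them near the floor, weigh most. In state 9 of library 1, Isg15 stood at 1.57, and at 0.0426 without the cells with many members. These correlations are a description, and no likeness to the members is read from them.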

How the data were processed

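Droplet single-cell RNA-seq was analysed from 2 libraries. Per the methods and processing notes, the authors counted with Cell Ranger (version 2.1.1, mm10) and filtered in Seurat on genes per cell (above 1500, below 6000) and on mitochondrial RNA (below 9%). The deposited cells had 1508 to 5987 genes and at most 8.99% mitochondrial RNA. The deposited values are the natural log of 1 plus UMIs per 10000 UMIs of a cell. On the linear scale 100% of them were whole multiples of 1 UMI within 0.01, so UMIs were recovered. The highest and lowest cells had 60990 and 4753 UMIs. No doublet caller was run; leaving out the deepest 5% of cells was an alternative.

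Cells were clustered in scanpy (version 1.11.5) and leidenalg (version 0.10.2) with 2000 variable genes per library, 30 components, 15 neighbours and resolution 1, leaving out 746 genes: sex-linked genes, reprogramming factors, some pluripotency genes, and the members and other interferon genes. A state took a name when at least 3 and 50% of a class's markers were 2-fold raised. Levels were averaged per class and library and tested with limma (version 3.58.1, R 4.3.3) on log2(mean + 0.1), with library as a covariate, using genes whose mean reached 0.1, with Benjamini-Hochberg adjustment over all genes tested and a threshold of 0.05. The libraries are the replicates; the labels do not tie them to separate cultures or animals, so p-values measure only the spread between these libraries, which limma moderates over all genes. An exact sign-flip test over 2 libraries cannot go below p = 0.5. The class of cells with many members was planned at 4 of 7 sparse members and taken at 3 of 7, because only 6 and 2 cells reached 4. On simulated data with 4-fold changes the tests recovered 100% of 200 changed genes for pluripotent-like cells (7029 genes tested) and 58% for the cells with many members (7207 genes tested), where 10.8% of the calls were unchanged genes. The simulation drew Poisson counts per profile with a small added spread and no variation between cells. In the real data 1 cell could set the level of a class of few cells, and more genes differed. These rates therefore do not carry over to the real comparisons.

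All members are named, with up to 4 genes of each interferon list with the largest fold past the threshold and the same sign in both libraries, up to 10 rising and 5 falling genes in cells with many members, and the 5 genes most like the mean of the members. The members and lists were chosen with earlier results of these data known. Places come from GENCODE M21 (GRCm38).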

Additional observations from a re-analysis of the deposited data

How the results depend on the processing

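Of the alternative values for the main counts and ratios, 21 stayed close to the reported one and 18 moved. These counts and ratios have no sign, so a turn of direction could not occur. The values that stayed close include those for variation over states, a test that 95.3% of all genes passed. The count of tested members lower in pluripotent-like cells was 2 as reported and 1 with a pseudocount of 0.01, with no filter on low values, without the deepest 5% of cells and with equal weight to each other state; Ifitm3 remained called in each, and Bst2 was lost. The count of other listed genes called in cells with many members was 2 as reported, 9 with a pseudocount of 1, 0 with a pseudocount of 0.01, no filter, a mean of at least 0.5, summed UMIs or without the deepest cells, 1 with at least 5 of 7 members, 1 after thinning to 3000 UMIs and 1 with other cells weighted by state. The median co-detection ratio of the 9 members was 5.57 as reported, 1.79 after thinning and 1.00 without the cells with many members; for the 7 sparse members it was 9.48, then 16.9 with strata of library only, 30.3 after thinning and 0 without these cells. Leaving out 1 library gave 1.18 to 5.71 and 6.16 to 9.97. The count of members at least 2-fold apart between libraries was 0 by the ratio of (mean level + 0.1), where Isg15 had a log2 ratio of -0.86. It was 1 with equal weight to each state and 5 with a pseudocount of 0.01. The added 0.1 draws the ratios of sparse members towards no difference. This count is therefore another measure than the ratios of UMI shares in the Results, and does not make the sparse members level. Settings without the cells with many members, and the pseudocount of 0.01 between libraries, were chosen after seeing the data. The causes were not tested. With 1 library left out no test over states or classes remained, so only each library's fold is given. Library was a covariate in each fit, so classes and states were compared within libraries. Sparse members under 3 UMIs in a class were not detectable at this depth.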
